A study of Mus musculus with 12 samples.

Results

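The genes described here encode the main peptide hormones of the small intestine, granule marker proteins of enteroendocrine cells and an enzyme of serotonin synthesis (Tph1). They are 10 of the 19937 genes that had a probe set naming a single gene symbol, chosen by name: Cck, Sct, Gip, Gcg, Pyy, Nts, Sst, Chga, Chgb and Tph1. Each had 1 such probe set on the array, and all 10 were bright enough to be tested. Total RNA from the small intestine of 12 male wild-type FVB mice, labelled as 8 weeks old, was measured on Affymetrix whole-transcript arrays. For 8 weeks, 6 mice ate a diet whose polyunsaturated-to-saturated ratio of fatty acids (P/S) was low, and 6 ate the diet labelled control HF. Per the design text, each diet's 6 arrays are biological replicates. The labels give neither the segment of small intestine, nor the time of dissection, nor when the mice last ate.

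Enteroendocrine cells are scattered singly through the intestinal epithelium and release peptides or serotonin from dense-core granules when nutrients arrive. Fat is a strong stimulus for several of these hormones, which slow the stomach, empty the gall bladder, drive pancreatic secretion and curb appetite. Cholecystokinin, secretin and GIP come mostly from the upper small intestine, and the glucagon gene products, peptide YY and neurotensin mostly from the lower small intestine, so their levels in a piece of gut depend on where it was cut.

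Transcripts of 4 of the 10 genes, Cck, Sct, Pyy and Chgb, were more abundant in low P/S intestines, and the other 6 did not pass the test. No gene of the 10 was called lower. The rises were small, between 1.14-fold for Chgb and 1.35-fold for Cck, and in none of the 10 genes did the 2 diets separate completely over the 12 arrays. The log2 difference (low P/S over control) was above 0 in all 10 genes, with a median of 0.18, whereas 55.8% of the 11962 genes tested had a difference above 0 and their median was 0.02. With limma's moderated test and Benjamini-Hochberg adjustment over all genes tested, 25.7% of the genes passed at an adjusted p under 0.05, 17.8% as higher and 7.87% as lower. These were 2132 and 942 genes, and with quantile normalization 1853 and 1596. Under that normalization 3 of the 10 genes were higher, the median of the 10 was 0.12 and all 10 differences stayed above 0. Of all genes tested, 48.2% were then above 0, with a median of -0.006. The background also depended on brightness. With a stricter filter at the 60th percentile of mean level, 63.4% of 7975 genes were above 0 (median 0.06) and 1984 were called higher. Of the 10 genes, 9 passed that filter, 4 were called higher and the median was 0.19. The diets failed to overlap in 10.8% of the genes tested, against 0 of these 10. In whole-tissue RNA, a change in the number of cells of a type and a change in transcript per cell cannot be told apart.

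**Figure D1:**
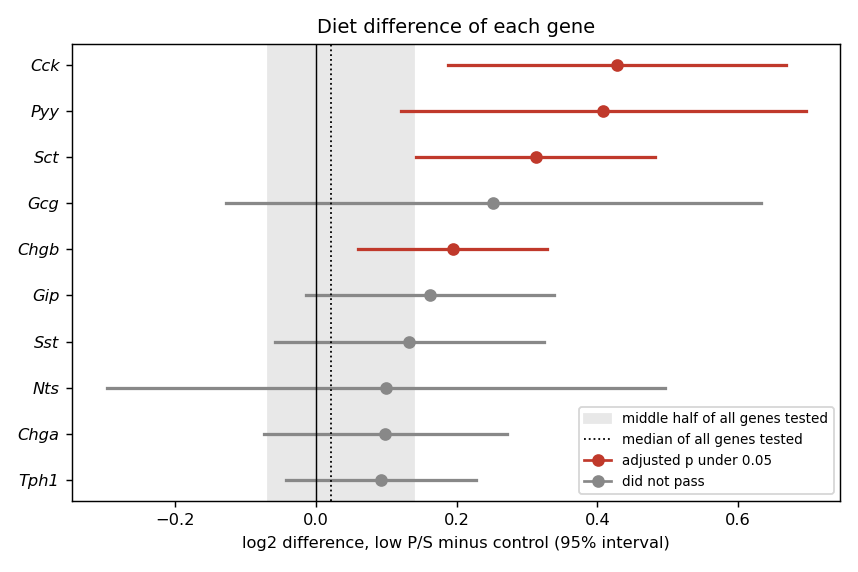
Log2 difference (low P/S minus control) of each gene with its 95% interval from limma, 6 arrays per diet. Red marks the 4 genes with an adjusted p under 0.05 (Cck, Pyy, Sct, Chgb), grey the other 6, the grey band the range between the quartiles of all 11962 genes tested and the dotted line their median of 0.02. All 10 points lie right of 0, and the interval of Nts is the widest, between -0.30 and 0.50.

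The sequences around the starts of the 4 genes that rose are shown together with that of Sst, because they can be set side by side for the elements for which endocrine promoters are known. The cAMP response element TGACGTCA was first worked out on the somatostatin promoter, and CANNTG, the E box, is the core of the sites of basic helix-loop-helix factors such as those that specify endocrine cells. Each window holds 250 bases before and 50 after the start, from RefSeq on GRCm38.p6, read 5′ to 3′ on the gene's strand, with TGACGTCA, its core TGACG on either strand and CANNTG in capitals. The core lies inside the full element where both occur. For Pyy, the window of the more upstream of 2 listed starts is shown.
Cck, chr9:121495645-121495944, minus strand: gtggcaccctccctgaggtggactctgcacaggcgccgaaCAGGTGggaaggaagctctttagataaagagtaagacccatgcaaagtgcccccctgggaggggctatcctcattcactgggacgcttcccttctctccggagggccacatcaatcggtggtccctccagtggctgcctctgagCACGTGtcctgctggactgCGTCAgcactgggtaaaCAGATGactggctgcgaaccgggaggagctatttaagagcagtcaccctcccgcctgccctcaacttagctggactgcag
Sct, chr7:141279084-141279383, minus strand: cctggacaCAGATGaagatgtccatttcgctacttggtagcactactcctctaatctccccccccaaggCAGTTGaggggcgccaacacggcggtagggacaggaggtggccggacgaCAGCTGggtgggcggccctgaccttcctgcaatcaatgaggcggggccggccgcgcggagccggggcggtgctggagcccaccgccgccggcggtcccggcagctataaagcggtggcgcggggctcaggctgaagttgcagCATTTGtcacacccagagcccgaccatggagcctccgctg
Pyy, chr11:102107783-102108082, minus strand: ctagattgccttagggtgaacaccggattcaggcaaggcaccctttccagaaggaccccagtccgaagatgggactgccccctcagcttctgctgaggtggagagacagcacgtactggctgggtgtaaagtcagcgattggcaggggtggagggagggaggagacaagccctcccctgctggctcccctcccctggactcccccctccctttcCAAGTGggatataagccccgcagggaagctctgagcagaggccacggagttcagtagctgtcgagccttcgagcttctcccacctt
Chgb, chr2:132781392-132781691, plus strand: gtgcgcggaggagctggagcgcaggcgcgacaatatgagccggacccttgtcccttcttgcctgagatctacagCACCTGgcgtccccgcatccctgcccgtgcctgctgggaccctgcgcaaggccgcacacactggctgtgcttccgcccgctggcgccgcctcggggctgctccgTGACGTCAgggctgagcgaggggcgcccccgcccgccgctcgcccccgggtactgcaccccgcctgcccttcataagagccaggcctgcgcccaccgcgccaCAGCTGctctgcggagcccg
Sst, chr16:23890795-23891094, minus strand: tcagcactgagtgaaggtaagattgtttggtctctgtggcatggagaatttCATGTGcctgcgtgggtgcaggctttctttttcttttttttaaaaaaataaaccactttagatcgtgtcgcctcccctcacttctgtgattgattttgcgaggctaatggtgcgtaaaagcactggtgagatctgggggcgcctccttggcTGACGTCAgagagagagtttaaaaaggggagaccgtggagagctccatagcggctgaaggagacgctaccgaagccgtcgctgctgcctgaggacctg

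TGACGTCA lay 48 bases before the start of Sst and 72 before that of Chgb. It was in 1.79% of the 32851 windows of all genes, and among the 12 windows of the 10 genes it was in these 2. The core TGACG was present in 7 of the 12 windows (6 genes, among them Cck and Chga), against 20.8% of all windows. At least 1 CANNTG was in 11 of the 12 windows, against 72.3% of all. These are matches of letters, and no measurement of binding was used.

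Cck, Sct and Gip encode the hormones of the upper small intestine. Cck (probe set 10597817) encodes cholecystokinin, which contracts the gall bladder and stimulates pancreatic enzyme release. Its intensity, on the linear scale of the deposited values, was lowest at 262, had a median of 294 and was highest at 374 in low P/S arrays, against 189, 210 and 315 in control arrays. Every low P/S array lay above 5 of the 6 control arrays, and the exception was control array 2 at 315. Cck rose 1.35-fold (log2 difference 0.43 ± 0.11, SE, n = 6 per diet; limma adjusted p = 0.0114; exact two-sided permutation p = 0.0152).

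Sct (probe set 10569129) encodes secretin, which makes the pancreas and bile ducts secrete bicarbonate. In low P/S arrays it ran from 236 through a median of 252 to 295, and in control arrays from 188 through 197 to 263. The pattern was that of Cck, with 5 control arrays below all low P/S arrays and control array 2 within their range. The rise was 1.24-fold (0.31 ± 0.08, limma adjusted p = 0.00963; exact permutation p = 0.0108). Cck and Sct passed in each of 24 alternative settings, with highest adjusted p-values of 0.0495 and 0.0356.

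Gip (probe set 10380581) encodes the incretin GIP, which augments insulin release after a meal and promotes fat storage. Its low P/S arrays lay between 647 and 970 with a median of 825, against 633 and 797 with a median of 726 in control arrays. The diets overlapped broadly, although 3 low P/S arrays were above every control array. The difference of 0.16 ± 0.08 did not pass (limma adjusted p = 0.165; 95% interval -0.01 to 0.34). Without low P/S array 5, the lowest of its diet, it was 0.23 and passed (adjusted p = 0.0338).

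Pyy, Gcg and Nts encode the hormones of the lower small intestine and colon. Pyy (probe set 10391561) encodes peptide YY, which slows gut transit and reduces food intake. It measured 280 at the lowest, 335 at the median and 427 at the highest in low P/S arrays, against 213, 236 and 378 in control arrays. Again only control array 2 lay within the low P/S range. Pyy rose 1.33-fold (0.41 ± 0.14, limma adjusted p = 0.0359; exact permutation p = 0.0346). The call changed with single arrays, while the difference stayed between 0.34 and 0.41 in the settings that lost it: the adjusted p was 0.0736, 0.0711 or 0.0835 without low P/S array 1, 2 or 4, and 0.0574, 0.0825, 0.0808 or 0.0845 without control array 3, 4, 5 or 6. Without control array 2 the difference was 0.53 (adjusted p = 0.00243). Pyy also missed the threshold with a trended robust prior (0.0562) and with each gene's own unmoderated variance (0.103).

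Gcg (probe set 10483074) encodes proglucagon, which intestinal L cells cut into the incretin GLP-1 and the gut growth factor GLP-2. Its intensities reached from 458 to 759 with a median of 553 in low P/S arrays, and from 313 to 814 with a median of 481 in control arrays. The highest of all 12 values was control array 2 at 814. The difference of 0.25 ± 0.18 did not pass (limma adjusted p = 0.317; 95% interval -0.13 to 0.63). It passed in 2 of 24 alternative settings, at 0.41 without control array 2 (adjusted p = 0.0372) and 0.48 without control arrays 1 and 2 (adjusted p = 0.0197). Omitting control array 4 gave 0.14 (adjusted p = 0.602), and omitting control array 6 gave 0.17 (adjusted p = 0.549). Omission of low P/S array 4 gave 0.16 (adjusted p = 0.551). When that array and control array 2 were both omitted, the difference was 0.32 and did not pass (adjusted p = 0.0724).

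Nts (probe set 10372139) encodes neurotensin, a peptide released by fat that promotes fat absorption. Low P/S arrays gave 202, 268 and 336 as lowest, median and highest, and control arrays 168, 238 and 435. Control array 2 was once more the highest of all, and the 2 diets covered much the same range. The difference was 0.10 ± 0.19 (limma adjusted p = 0.728), and its 95% interval of -0.30 to 0.50 includes changes as large as that of Cck. Without control array 6, the lowest, its sign turned (-0.014, adjusted p = 0.968).

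**Figure D2:**
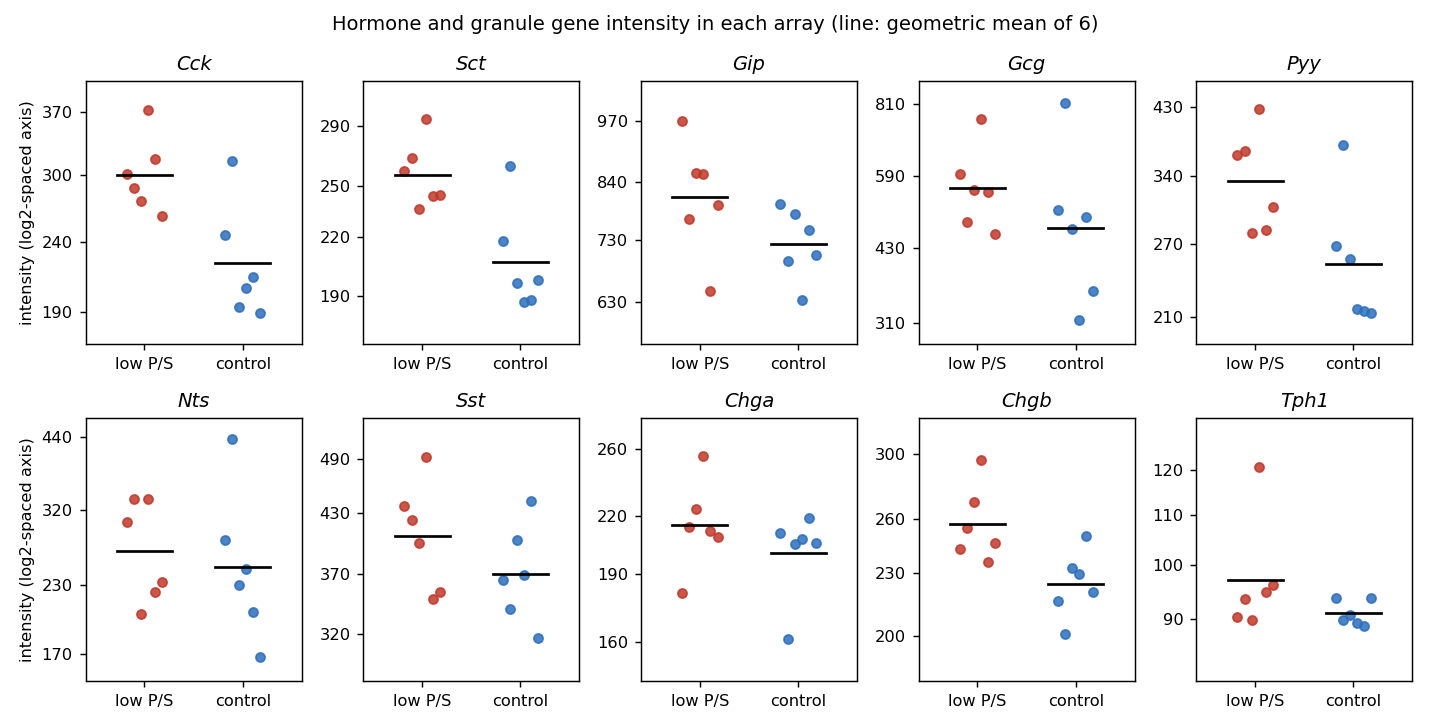
Intensity of each of the 10 genes in every array on a log2-spaced axis, low P/S in red and control in blue, with a black line at the geometric mean of 6 arrays. For Cck, Sct and Pyy a single blue point, control array 2, lies within the red range, and Tph1 has a single red point at 121 above the rest.

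Sst and Tph1 stand for the products that act on neighbouring cells. Sst (probe set 10438730) encodes somatostatin, which D cells release to restrain other hormones and which enteric neurons also make. Its range was 349 to 493 with a median of 411 in low P/S arrays, and 317 to 442 with a median of 367 in control arrays. The difference of 0.13 ± 0.09 did not pass (limma adjusted p = 0.295; 95% interval -0.06 to 0.32). Tph1 (probe set 10563570) encodes tryptophan hydroxylase 1, the first enzyme of serotonin synthesis in enterochromaffin cells, and mast cells of the mouse also carry it. It was the dimmest of the 10, close to the limit of 85.6 under which genes were left out, with 89.9, 94.2 and 121 in low P/S arrays and 88.8, 90.3 and 93.8 in control arrays. The difference of 0.09 ± 0.06 did not pass (limma adjusted p = 0.304), and 5 of the 6 low P/S arrays lay at 96.2 or lower.

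Chga and Chgb encode the chromogranins, acidic proteins that help to form dense-core granules and are used as general markers of endocrine cells. Chga (probe set 10397882) had 181, 213 and 256 as lowest, median and highest in low P/S arrays, and 161, 206 and 219 in control arrays. The control value of 161 belonged to array 2, apart from the other 5, which lay between 205 and 219. Its difference was 0.10 ± 0.08 (limma adjusted p = 0.394; 95% interval -0.07 to 0.27). Without low P/S array 4 and control array 2 together, a setting added after seeing the data, the sign turned (-0.014, adjusted p = 0.886).

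Chgb (probe set 10476355) reached 236, 250 and 296 in low P/S arrays, against 201, 225 and 250 in control arrays. Here too 5 control arrays lay below every low P/S array, but the exception was control array 5 and the lowest was control array 2. The rise was 1.14-fold (0.19 ± 0.06, limma adjusted p = 0.0338; exact permutation p = 0.0108). The difference was 0.15 to 0.20 and the adjusted p 0.0624 or 0.0794 without low P/S array 3 or 4, and 0.0574, 0.0673, 0.0508 or 0.0616 without control array 1, 2, 4 or 6. It was 0.153 with quantile normalization, 0.0785 with array weights, 0.0610 with the unmoderated variance and 0.118 without control arrays 1 and 2. Without low P/S array 4 and control array 2 the difference was 0.12 (adjusted p = 0.139).

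Single arrays stood out across several genes. Low P/S array 4 was the highest of its diet in 8 of the 10 genes, all but Gip and Nts. Control array 2 was the highest control array in Cck, Sct, Gcg, Pyy and Nts and the lowest in Chga and Chgb. Control array 6 was the lowest control array in Cck, Pyy, Nts and Sst. The number of genes called higher was 2 without low P/S array 4, 2 without control array 4, 2 without control array 6 and 5 without low P/S array 5. Without low P/S array 4 and control array 2 together, Cck (0.46, adjusted p = 0.000698), Sct (0.34, adjusted p = 0.00101) and Pyy (0.45, adjusted p = 0.00356) passed.

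**Figure D3:**
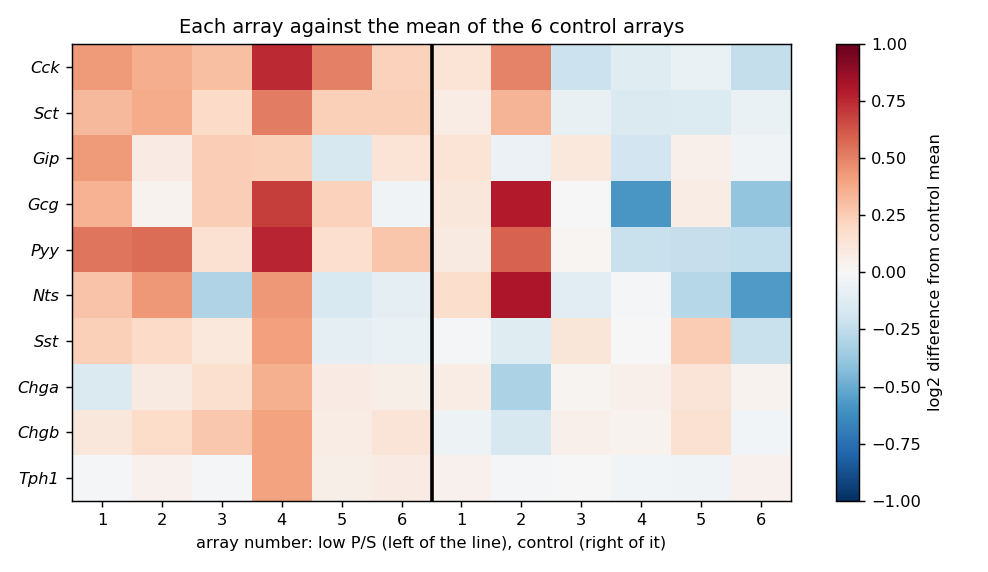
Log2 difference of every array from the mean of the 6 control arrays, with genes in rows, low P/S arrays left of the line and control arrays right of it, and red for higher and blue for lower. Low P/S array 4 is red in all 10 rows, and control array 2 is red in Cck, Sct, Gcg, Pyy and Nts but blue in Chga and Chgb.

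The genes also varied between mice of the same diet. After each diet's mean was removed, the 45 pairs of genes were correlated over the 12 arrays, with permutation within diets and adjustment over the 45 pairs. Pearson's r passed for 11 pairs, of which 9 joined Cck, Sct, Gcg, Pyy and Nts to each other. The share of pairs that would pass among all genes was not computed, so the count does not set these genes apart. The closest pair was Sct and Pyy (r = 0.96, permutation p = 0.000130, adjusted p = 0.00585; Spearman rho = 0.80, permutation p = 0.00610, adjusted p = 0.137). For Pyy and Nts, r was 0.93 (permutation p = 0.000270, adjusted p = 0.00607) and rho was 0.94 (permutation p = 0.000220, adjusted p = 0.00990), the 1 pair that passed by rank. Leaving out the 2 arrays farthest from the median of the first gene gave r = 0.86 for both pairs. In the same way r fell to 0.32 for Cck and Pyy and 0.32 for Sct and Gcg, each at 0.80 over all arrays, and to 0.51 for Cck and Sct, 0.50 for Cck and Nts and 0.55 for Cck and Gcg. By rank, rho was 0.49 for Cck and Sct, 0.51 for Gcg and Pyy and 0.34 for Gcg and Nts, and none of these passed. Among all other genes tested, the 2 whose pattern was most like that of Pyy were Sct and Nts, and Pyy came second for Sct. For Cck, Gip, Gcg, Nts, Sst, Chga, Chgb and Tph1, both of the closest genes lay outside the 10. Those of Nts were Chd2 (r = 0.95) and Golga2 (r = 0.94). Cck was most like Oit1, a secreted protein gene of the gut also named Fam3d (r = 0.96), and Sct most like the squalene synthase gene Fdft1 (r = 0.96). These were picked as the highest values, so no p is given.

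The other 2 passing pairs joined Chgb to Chga (r = 0.82, permutation p = 0.00209, adjusted p = 0.0188; rho = 0.66, permutation p = 0.0369, adjusted p = 0.276) and to Sst (r = 0.77, permutation p = 0.00722, adjusted p = 0.0311; rho = 0.71, permutation p = 0.0206, adjusted p = 0.185). Without the 2 farthest arrays these were 0.86 for Chga and Chgb and 0.47 for Sst and Chgb. Between Chga and the 5 hormone genes above, r lay between -0.43 and -0.26, and no such pair passed. Without control array 2, 1 pair passed by Pearson's r, Sct and Pyy (r = 0.91, permutation p = 0.000750, adjusted p = 0.0337), and 1 by rank, Pyy and Nts (rho = 0.93, permutation p = 0.000750, adjusted p = 0.0337). There r between Chga and Pyy was 0.20 (permutation p = 0.681). Without low P/S array 4, 3 pairs passed by Pearson's r and 1, Pyy and Nts, by rank. That setting gave r = -0.82 for Chga and Pyy (permutation p = 0.0233, adjusted p = 0.116). With no array left out, r for Chga and Pyy was 0.27 within low P/S and -0.90 within control. Gip varied apart from Cck (r = 0.00, permutation p = 0.988; rho = -0.03, permutation p = 0.964).

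**Figure D4:**
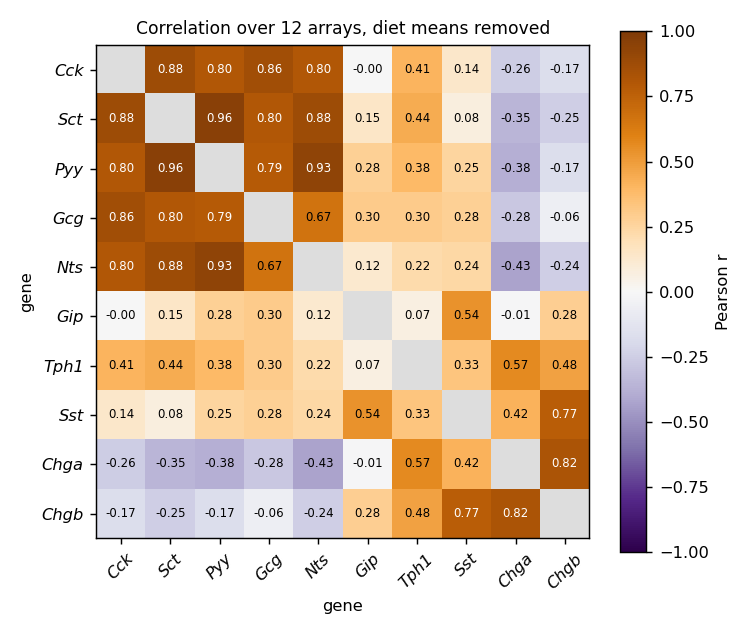
Pearson's r of each pair of genes over the 12 arrays after removal of the diet means, from purple (-1) to orange (1). Cck, Sct, Pyy, Gcg and Nts form a block with r of 0.67 or more over all 12 arrays, which for Cck with Pyy and Sct with Gcg fell to 0.32 without the 2 farthest arrays, and Chga and Chgb form another with Sst at their edge.

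Other genes of the same cells were counted in lists, which were chosen with earlier results of these data known. For this and the later lists, the shares over all genes tested were 17.8% higher and 7.87% lower. Of 13 tested genes of granules, prohormone processing and secretion, 2 were lower, 0 were higher and 11 did not pass, with a median difference of -0.12. The monoamine vesicle transporter gene Slc18a1 fell (intensity 233 in low P/S and 287 in control, as geometric means; -0.30 ± 0.07, adjusted p = 0.00417). Pcsk1n, whose protein inhibits prohormone convertase 1, had 125 in low P/S and 142 in control (-0.19 ± 0.07, adjusted p = 0.0488), a call that ended without low P/S array 1, 2, 4 or 5 or control array 3, 4, 5 or 6 (adjusted p between 0.0510 and 0.110). The call also ended with no filter on dim genes (0.0618), the unmoderated variance (0.0859) or 16 added to each intensity (0.0526). Without low P/S array 4 and control array 2 together, its adjusted p was 0.0549. Without control array 1, 5 genes were lower. Of these 13 genes, 12 had a difference below 0, among them the convertase gene Pcsk1 (-0.04 ± 0.06, adjusted p = 0.683) and the secretogranin gene Scg2 (-0.14 ± 0.08, adjusted p = 0.191). Whether the hormone genes differ in response from this list was not tested.

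Of 8 tested transcription factor genes of the enteroendocrine lineage, Nkx6-3 was lower (-0.18 ± 0.05, adjusted p = 0.0170) and 7 did not pass, with a median of -0.05. Nkx6-3 was dim, with 97.3 in low P/S and 111 in control arrays, not far above the limit of 85.6. Insm1, a zinc finger factor of endocrine differentiation, had 120 in low P/S and 124 in control arrays (-0.04 ± 0.05, adjusted p = 0.545). The other 12 on the array were too dim to test, among them Neurog3, which starts the lineage (75.8 in low P/S and 75.4 in control), and its target Neurod1 (65.3 in low P/S and 63.9 in control).

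Besides the 10 genes, 11 further peptide or prohormone genes were tested, of which 1 was higher, 3 were lower and 7 did not pass (median -0.06). Guca2a and Guca2b, which encode guanylin and uroguanylin, regulators of salt and water secretion that are made by several epithelial cell types, were 1.31-fold and 1.25-fold lower. The neuropeptide gene Gal was 1.21-fold lower, at 79.9 in low P/S and 96.9 in control. Nucb2, the gene of the nesfatin precursor, rose 1.21-fold, a call that ended with the unmoderated variance (adjusted p = 0.0512). The ghrelin gene Ghrl had 120 in both diets (0.00 ± 0.05, adjusted p = 0.998).

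Among nutrient sensors, 13 of 20 on the array were too dim to test. They included the long-chain fatty acid receptor genes Ffar1 and Ffar4 (Ffar4 70.6 in low P/S and 71.9 in control) and Gpr119, a receptor for fat-derived lipids (59.5 in low P/S and 66.4 in control). Of the 7 tested, Slc5a1, the sodium-glucose transporter of enterocytes through which glucose also triggers incretin release, was 1.75-fold lower (-0.81 ± 0.13, adjusted p = 0.000556), and the other 6 missed the threshold. The bile acid receptor gene Gpbar1 had a difference of -0.07 ± 0.05 (adjusted p = 0.340).

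The genes that act on these products after release gave larger differences. Of 10 tested genes of their receptors, uptake and breakdown, 7 were lower, 0 were higher and 3 did not pass, with a median of -0.45. Dpp4, the peptidase that inactivates GLP-1 and GIP, had 1901 in low P/S and 3094 in control (-0.70 ± 0.06, adjusted p = 2.14e-06). The peptidase genes Ace and Mme were 2.13-fold and 1.43-fold lower and Enpep fell by 0.58 on the log2 scale, and in each every low P/S array lay below every control array. The other 3, named after their values were seen, were the aminopeptidase gene Anpep (1.55-fold lower) and Maob and Maoa, whose monoamine oxidases degrade serotonin and other amines (1.32-fold and 1.28-fold lower). These enzymes are abundant in enterocytes and act on many substrates. The serotonin transporter gene Slc6a4 had a difference of -0.05 ± 0.05 (adjusted p = 0.471). The 19 too dim to test included the receptor genes Cckar, Sctr, Gipr, Glp1r and Npy2r.

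**Figure D5:**
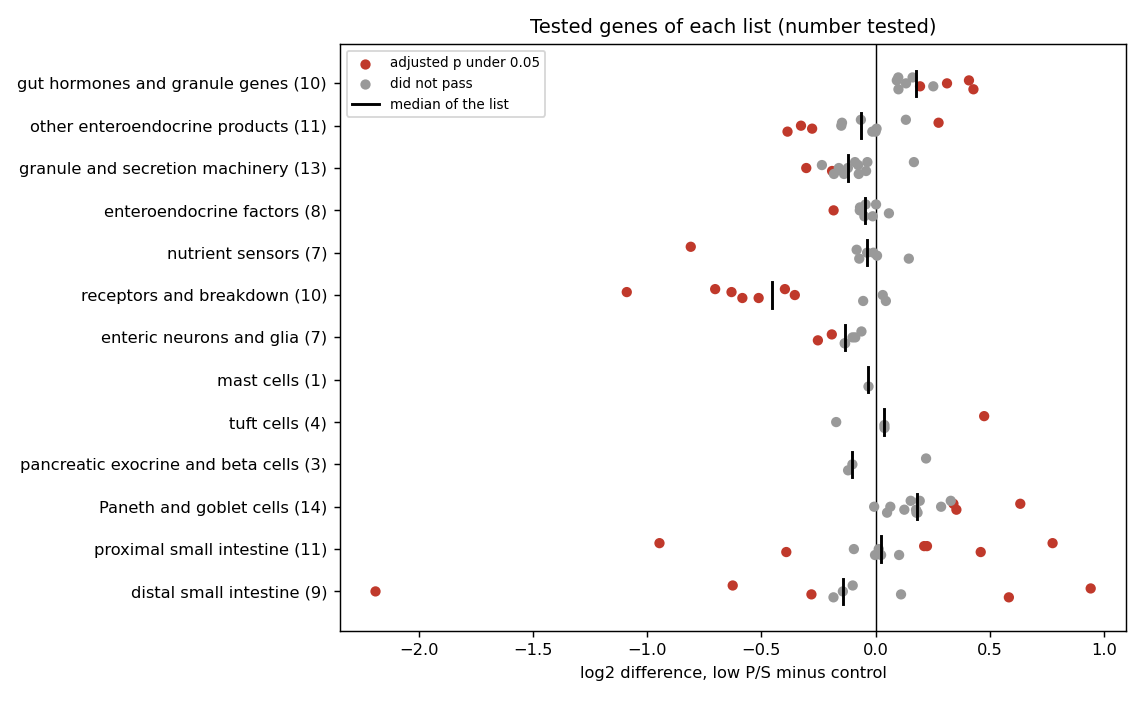
Log2 difference (low P/S minus control) of every tested gene of each list, red where the adjusted p was under 0.05 and grey otherwise, with a black bar at the list's median and the number tested in brackets. The 10 hormone and granule genes lie right of 0 with a median of 0.18, the granule and secretion machinery has a median of -0.12, and the receptor and breakdown genes have 7 red points between -1.09 and -0.35.

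Markers of other cells that share products with these genes were set beside them. Paneth and goblet cells, the other secretory cells of the epithelium, had 3 of 14 marker genes higher, 0 lower and 11 not passing. That count is near the 17.8% called higher over all genes tested. Their median of 0.18 equalled that of the 10 genes, and 13 of 14 differences were above 0. Agr2, a folding enzyme of mucins, rose 1.55-fold (adjusted p = 0.00671), Clca1 1.28-fold (adjusted p = 0.0329) and Pla2g2a 1.27-fold (adjusted p = 0.0448). The Clca1 call ended without low P/S array 1, 2, 3 or 4 or control array 4 (adjusted p between 0.0561 and 0.0783) and with the unmoderated variance (0.0937). The Pla2g2a call ended without low P/S array 1, 3, 4 or 5 or control array 3, 4 or 6 (adjusted p between 0.0513 and 0.106), and with median centring, no filter on dim genes, array weights or the unmoderated variance (0.0516 to 0.114). The summed intensity of the 14 ranged from 44466 to 49235 in low P/S and from 35296 to 48122 in control arrays. The count was 1 without low P/S array 3 or 4 or control array 4, 2 without low P/S array 1 or 5 or control array 3 or 6, 5 without control array 5 and 6 without control array 2.

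Markers of enteric neurons and glia were lower in 2 of 7 cases, and 5 did not pass. Stmn2 fell by 0.25 on the log2 scale (adjusted p = 0.00990), and Prph by 0.19 (adjusted p = 0.0279), a call that ended without low P/S array 1 or 2 or control array 3, 4 or 6 (adjusted p between 0.0531 and 0.0684). The summed intensity of 14 neural markers, 7 of them too dim to test, was 1111 to 1200 in low P/S and 1186 to 1321 in control arrays. Of 11 mast cell markers 10 were too dim to test, the proteases Mcpt1 (51.3 in low P/S and 57.2 in control) and Cpa3 (46.3 in low P/S and 46.7 in control) among them. Their sum was 688 to 750 in low P/S and 748 to 776 in control arrays, and the 1 tested, Kit, did not pass (-0.03 ± 0.06, adjusted p = 0.721).

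Tuft cell markers had 1 of 4 higher, Ltc4s (1.39-fold, adjusted p = 0.0105). The sum over 12 tuft markers, 8 of them too dim to test, was 1317 to 1407 in low P/S and 1190 to 1342 in control. Of 3 pancreatic markers tested, 0 passed by limma, and 1 of them, Cela2a, had an unadjusted p under 0.05 (-0.12 ± 0.05; exact permutation p = 0.0238), while Clps had a difference of 0.22 ± 0.10 (adjusted p = 0.133). The sum of 9 pancreatic markers, 6 of them too dim to test, was 930 to 1116 in low P/S and 940 to 1052 in control arrays. The lowest value of the whole table was 17.7, so a marker value above 0 does not show that its cells were present. The part of these cells in the values of the 10 genes was not tested.

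Because each hormone belongs to a stretch of gut, markers of the segments were set beside them. Of 11 proximal markers 4 were higher, 2 lower and 5 did not pass (median 0.02). Cldn2 (1.71-fold) and S100g (1.38-fold) rose, while the lactase gene Lct was 1.93-fold and Adh6a 1.31-fold lower. Of 9 distal markers 2 were higher, 3 lower and 4 did not pass (median -0.14). Slc51b rose 1.92-fold, and Cubn, Ceacam20 and Amn were 4.56-fold, 1.54-fold and 1.22-fold lower. The summed intensity of 13 proximal markers was 20707 to 24145 in low P/S and 21713 to 29185 in control arrays, and that of 11 distal markers 4557 to 5882 in low P/S and 7541 to 9056 in control arrays. Both lists held genes that moved in opposite directions. The part of segment in the hormone values was not tested.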

How the data were processed

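Total RNA (500 ng per array, without rRNA reduction, per the labels' protocols) from 12 small intestines was hybridised to Affymetrix whole-transcript arrays. The deposited table holds the authors' intensity values on a linear scale for 34760 probe sets, between 17.7 and 20294, with array medians of 91.9 to 99.5. The summarisation, background correction and normalization are not given in the sources used here, and how they affect small differences is unknown. The platform annotation gives 21640 probe sets 1 gene symbol, 1321 several and 11799 none, and those with 1 symbol were used. For the 954 genes with several such probe sets, the one with the highest mean over the 12 arrays was taken.

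Genes whose mean lay below the 40th percentile (an intensity of 85.6) were left out, which left 11962 and removed 7975. The deposited intensities were not normalized again but were taken to log2 and fitted with limma 3.58.1 in R 4.3.3 (lmFit and eBayes, 6 arrays against 6, no covariate), with Benjamini-Hochberg adjustment across every gene tested. Exact permutation tests of single genes were two-sided, with 0.0022 the smallest p that they can give. Correlations used 100000 permutations within diets. Python 3.11.15 with NumPy 2.4.6, SciPy 1.17.1 and pandas 2.3.3 was used for these, and matplotlib 3.10.9 for plots. On simulated data with 11962 genes, the fit recovered 26 of 50 genes changed by 0.25 on the log2 scale and 43 of 50 changed by 0.5, with 15 false calls among 184. The simulated noise was independent between genes, and far fewer genes were changed than the 25.7% called in the real data. The shares recovered and falsely called there therefore need not hold for the real data. The number of arrays limits the precision, and the median standard error was 0.061.

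The 10 genes and the gene lists were chosen with earlier results of these data known. In each further list, up to 4 passing genes of smallest p are named, or the 2 of smallest p where none passed, and for likeness the 2 genes of highest correlation were ranked for each of the 10. Other genes are named for their known role or as too dim to test, and were chosen after their values were seen.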

Additional observations from a re-analysis of the deposited data

Results flagged for a closer look

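Of 20 groups examined (10 genes in 2 diets of 6 arrays), 2 held an array far from the others by Dixon's test, and chance alone gives about 1 in 20. Chga was 161 in control array 2, against 205 to 219 in the other 5 control arrays. On the log2 scale the gap took a share of 0.783 of the whole range. Tph1 was 121 in low P/S array 4, against 89.9 to 96.2 in the other 5 low P/S arrays, a share of 0.769 on the log2 scale.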

How the results depend on the processing

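Of 24 alternatives, 23 were planned and 1, without low P/S array 4 and control array 2, was chosen after seeing the data. Over the named genes, 866 of 928 values kept direction and side of the threshold, 55 lost the call, 4 gained it and 3 turned sign, and 48 of 576 counts of lists moved. The number of the 10 genes called higher was 2 with unmoderated variances and between 2 and 5 without single arrays, and 0 were lower throughout. Genes called lower in the whole table were 1596 with quantile normalization. Signs turned for the Nts difference without control array 6 (-0.014; up to 0.26 without other single arrays), the Chga difference without low P/S array 4 and control array 2 (-0.014) and the Kit difference without control array 4 (0.000386; down to -0.060 without other single arrays). Of the 45 pairs, 1 passed by Pearson's r without control array 2 and 3 without low P/S array 4, and 1 (Pyy and Nts) by rank in each, both settings added after seeing the data. The causes were not tested. Equal array numbers were not taken as pairs, since the correlation of same-numbered arrays lay between -0.11 and 0.42 and was over 0.1 for 3 of 6 numbers. With the replicate block, 4 of the 10 genes were higher and 0 lower, with 2454 and 1076 over all genes, and 2 low P/S and 2 control arrays correlated best with their own number. Tph1 could not be tested with the stricter filter, at the 60th percentile.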
